A study of Mus musculus with 9 samples.

Results

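Hippocampal transcripts of adult mice with cognitive decline (p3) were compared with those of adult mice of normal cognition (p2). The comparison took 6 of the 9 mice measured, p3 mice 2, 6 and 11 and p2 mice 3, 8 and 18, and 6291 of the 22206 probe sets of the array, each of which reads the transcript of a gene. Adult mice whose label ends in D, read as decline, formed p3, and adult mice without it formed p2. All 6 were male mice of the strain labelled C57BL6 (C57BL/6NCrSlc in the methods), aged 47 weeks, with no transgene and no drug given. By the study's account, the mice were picked from a cohort by a ranked T-score of the Y-maze and the open field test, p3 as the lowest and p2 as the highest scores, so the groups are the ends of a behavioural ranking and not a treatment. The remaining 3 mice (p1: 7, 19 and 20) were young, aged 11 weeks, and are used below only as a further set of values and for the estimate of the spread. The whole hippocampus was taken after perfusion with PBS, and each mouse had 1 Clariom S array.

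The hippocampus stores places and recent events. Granule cells of the dentate gyrus pass cortical input to the pyramidal cells of CA3 and CA1, and cholinergic fibres from the septum act on all of them. When these neurons fire, they transcribe immediate early genes within minutes, and inhibitory interneurons, astrocytes, microglia and oligodendrocytes, which are in the same tissue, contribute to a bulk measurement. In such a measurement, fewer cells of a type and less RNA per cell cannot be told apart.

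The p2 columns held measurements for 6291 probe sets (28.3%), 5623 of them with a gene symbol. In the other 15915 rows the p2 values follow a straight line by row number and are not data. The measured rows are a block of the array and not a sample of it, with identifiers of chromosome 1 (1199 probe sets), 2 (1825), 3 (1022), 4 (1335) and part of 5 (910 of 1274). Genes elsewhere, among them the nicotinic receptor gene Chrna3, have no p2 value. Chrna3 was at 4.03, 4.26 and 4.02 on the log2 scale in p3 mice, against 4.68, 4.43 and 4.12 in p1 mice. The groups overlapped, with p3 mouse 6 (4.26) above p1 mouse 20 (4.12). These are dim values, under the level of 4.92 below which most measured olfactory receptor genes lay (below). The study reports Chrna3 as lower in p3 than in p2, on its arrays and by immunostaining. The values of p3 and p1 do not bear on that comparison. Over the measured probe sets the array medians lay between 6.93 and 7.0. Pairs of arrays correlated, across probe sets, at 0.990 to 0.995. The median difference of p3 minus p2 was 0.01, and 51.5% of probe sets were on the higher side in p3.

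The threshold of the study was taken as an unadjusted p under 0.05 in limma together with a fold change over 1.5 (0.58 on the log2 scale). Of 6291 probe sets, 97 were past it (1.54%), 60 higher in p3 (0.954%) and 37 lower in p3 (0.588%). After quantile normalization there were 96, 44 higher and 52 lower. None reached an adjusted p under 0.05 (the adjusted p from limma was 0.853 for each of the 97), 335 had an unadjusted p under 0.05 (5.33%), and the p3 and p2 values did not overlap in 695 (11%). For the arrays the methods name a one-way ANOVA, and a one-way model without moderated variances called 48 at the same threshold. The t-test, which the methods name in their general statistics and not for the arrays, called 41. After adjustment it called 1 probe set, which has no gene symbol and a fold under 1.5. Each gene named below is therefore a value to be read with its spread over 3 mice a group.

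The calls were not spread evenly over the range of levels. At a mean log2 value of 6 or more there were 38 among 3622 probe sets, 11 higher and 27 lower in p3. Below 6 there were 59, 49 higher and 10 lower. With the probe sets cut into 4 bins of equal size by level, 31 of 34 calls in the lowest bin were higher in p3, 19 of 30 in the next, 8 of 26 in the one above and 2 of 7 in the highest, which held the smallest share of calls (0.445%, against 2.16% in the lowest bin). Genes named at 6 or more are therefore described apart from the dimmer ones.

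**Figure D1:**
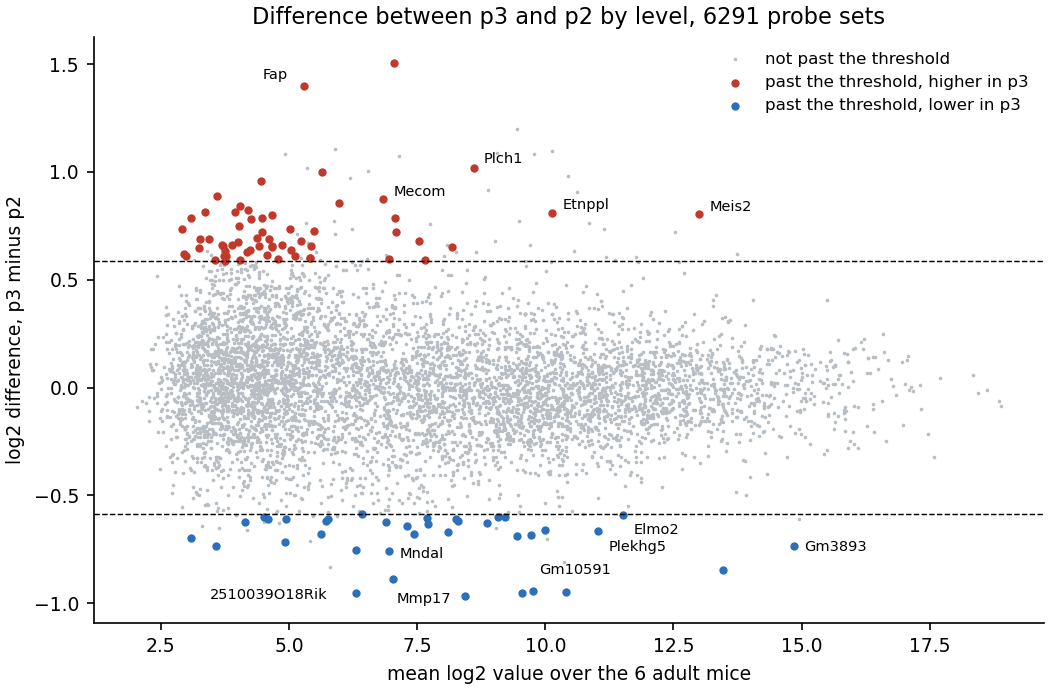
Log2 difference of p3 minus p2 (vertical axis) against the mean log2 value over the 6 adult mice (horizontal axis) for 6291 probe sets, with the dashed lines at a fold of 1.5. Red points are the 60 probe sets past the threshold that were higher in p3 and blue points the 37 that were lower; 49 of the 60 lie below a level of 6, and 27 of the 37 lie at 6 or above.

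Of the expressed genes, 22 named ones were lower in p3, led by Mmp17. Mmp17 encodes a membrane-anchored matrix metalloproteinase that acts on proteins at the cell surface. Its log2 values were 8.14, 7.93 and 7.81 in p3 mice 2, 6 and 11, against 9.25, 8.94 and 8.59 in p2 mice 3, 8 and 18, and values of single mice are given in this order of mice throughout. The highest p3 mouse was below the lowest p2 mouse, and the young mice, at 8.88, 8.83 and 8.87, were within the range of p2. The difference was -0.97 (standard error 0.18, 95% interval -1.36 to -0.57, limma adjusted p = 0.853), and no probe set had a smaller unadjusted p. None of the other 8 measured metalloproteinases and inhibitors was past the threshold, with Adamtsl2, a secreted matrix protein, at 0.37.

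Plekhg5, which has a part in the autophagy of synaptic vesicles, was at 10.66, 10.88 and 10.55 in p3 mice, against 11.91, 11.25 and 10.93 in p2 mice (difference -0.67, standard error 0.26). Elmo2, which with Dock proteins activates Rac in cell movement and engulfment, was at 11.33, 11.09 and 11.27 in p3, against 12.16, 11.64 and 11.66 in p2 (-0.59, standard error 0.20). In both genes p2 mouse 3 was the highest of the 6 mice, and the groups did not overlap. Npdc1, a neuronal membrane protein tied to the exit from division, differed by -0.67 (7.43 to 7.96 in p3, against 8.15 to 8.70 in p2). Ajm1, the homologue of a junction protein of Caenorhabditis elegans, differed by -0.63. Rgp1, a subunit of the exchange factor for the Golgi GTPase Rab6, differed by -0.62, with p3 mouse 2 (8.38) above the lowest p2 mouse (8.34).

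Ythdf1, a cytosolic reader of N6-methyladenosine in mRNA that has a part in synaptic plasticity in mice, was at 8.80, 8.49 and 8.37 in p3, against 9.19, 9.09 and 9.26 in p2. The highest p3 mouse was below the lowest p2 mouse, and the difference was -0.63 (standard error 0.15). None of the other 6 measured m6A genes was past the threshold, the farthest from 0 being Zcchc4, a methyltransferase of ribosomal RNA, at 0.19. Spen, a large RNA-binding corepressor, was at 9.01, 8.96 and 8.76 in p3, against 9.77, 9.11 and 9.65 in p2 (-0.60). Ncbp1, the large subunit of the nuclear cap-binding complex, differed by -0.61, and in it p3 mouse 6 (8.29) was above p2 mouse 8 (8.17). Gpatch3, a dimmer G-patch protein (mean level 4.59), differed by -0.61 with no overlap.

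Gstm3, a glutathione transferase of the mu class, was at 7.42, 6.98 and 6.86 in p3, against 7.73, 7.78 and 7.79 in p2, where the 3 mice were nearly equal (difference -0.68, standard error 0.17). Acp6, a phosphatase of lysophosphatidic acid, and Uckl1, a uridine kinase-like protein, differed by -0.62 and -0.59. Mrps26, of the small subunit of the mitochondrial ribosome, differed by -0.60, and p3 mouse 2 (7.82) was above p2 mouse 8 (7.72). Mndal, of the interferon-inducible p200 family, was at 6.76, 6.39 and 6.58 in p3, against 7.56, 7.24 and 7.20 in p2 (-0.76, standard error 0.16). The transcripts 2510039O18Rik, Gm15455 and Tmem250-ps differed by -0.95, -0.75 and -0.64, with p3 below p2 in each.

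**Figure D2:**
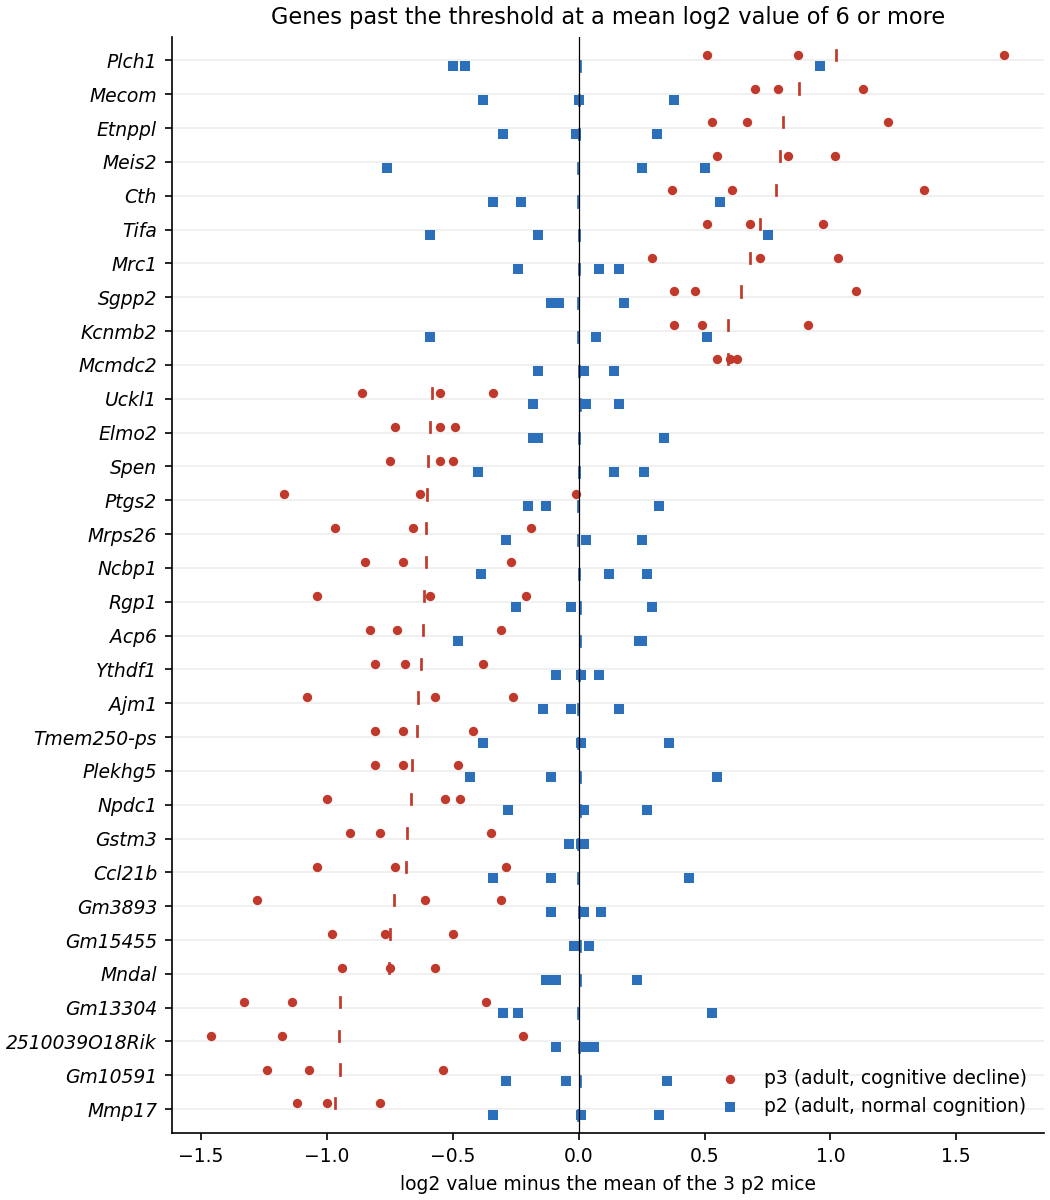
Log2 value of each mouse minus the mean of the 3 p2 mice (horizontal axis) for the 32 named genes past the threshold at a mean level of 6 or more, with p3 mice as red circles above p2 mice as blue squares in each row and a tick at each group's mean. The groups did not overlap in 6 of the 10 genes higher in p3 and in 16 of the 22 that were lower. The threshold picked these genes from the same values, so a lack of overlap is no separate support. Of all 97 probe sets past it, 70 had no overlap, against 695 of all 6291 (11%).

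Several of the lower probe sets came from 1 stretch of chromosome 4, where copies of the chemokine gene Ccl21 lie among copies of Fam205a. Ccl21 draws T cells and dendritic cells through the receptor Ccr7. Of the 14 probe sets from Gm3893 to Gm10591, 7 have a symbol, all 14 were on the lower side in p3, and 6 were past the threshold. Of all 6291 probe sets, 37 were past it and lower in p3 (0.588%). The ends of the stretch, Gm3893 and Gm10591, are themselves past the threshold, so these counts are no separate support. Whether the copies share signal was not tested. Gm10591 was at 9.48, 8.95 and 8.78 in p3, against 9.73, 9.97 and 10.37 in p2 (difference -0.95, standard error 0.24). Gm13304 was at 9.86, 8.90 and 9.09 in p3, against 9.99, 9.93 and 10.76 in p2 (-0.94, standard error 0.28). In both, p3 mouse 2 lay close to the lowest p2 mouse and the other p3 mice lay about 1 log2 unit under p2. Ccl21b differed by -0.68 with overlap (p3 mouse 2 at 9.79, against p2 mouse 3 at 9.74), and Gm3893, a transcript at a far higher signal (14.91, 14.61 and 13.94 in p3, against 15.11, 15.24 and 15.31 in p2), by -0.73. The Fam205a copies were short of the threshold, with Fam205a4 at -0.38 and Fam205a3 at -0.36.

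Some probe sets of these copies had the values of others outside the stretch. The Ccl21b probe set had the same values as one named Ccl21c in all p3 and p1 mice, and the Gm10591 probe set the same as another one named Ccl21b. The sequences before the start of the copies, from RefSeq (GRCm38.p6), were compared. The 250 bases before the start of Gm13304 (+ strand) and of Gm10591 (+ strand) are identical. Over 249 bases, shifted by 1, they differ at 2 places from those of Ccl21a (- strand), which is not in the measured block, and the window listed for Ccl21b shares no run of 20 bases with them. They are printed to show how alike the copies are before their starts, with the differing bases in capitals, and probe sequences were not compared.
Gm13304 (chr4:42114537-42114785) and Gm10591 (chr4:42611873-42612121): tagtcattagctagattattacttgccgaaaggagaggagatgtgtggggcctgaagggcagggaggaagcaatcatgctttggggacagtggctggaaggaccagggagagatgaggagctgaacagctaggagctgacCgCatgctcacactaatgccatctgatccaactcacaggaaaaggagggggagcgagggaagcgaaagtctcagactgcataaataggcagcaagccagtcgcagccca
Ccl21a (chr4:42773992-42774240): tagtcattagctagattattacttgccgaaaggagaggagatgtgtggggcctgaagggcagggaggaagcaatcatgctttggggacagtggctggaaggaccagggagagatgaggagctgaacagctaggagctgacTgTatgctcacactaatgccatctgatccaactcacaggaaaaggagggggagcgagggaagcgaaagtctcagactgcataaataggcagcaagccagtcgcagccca

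In the young mice the 6 probe sets past the threshold had means below those of p3, while 4 of the other 8 had means above them. Gm10591 was at 8.57, 8.88 and 9.21 and Gm13304 at 8.78, 9.02 and 8.94 in p1. Of the 9 mice, the 3 p2 mice were thus the highest in both genes.

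**Figure D3:**
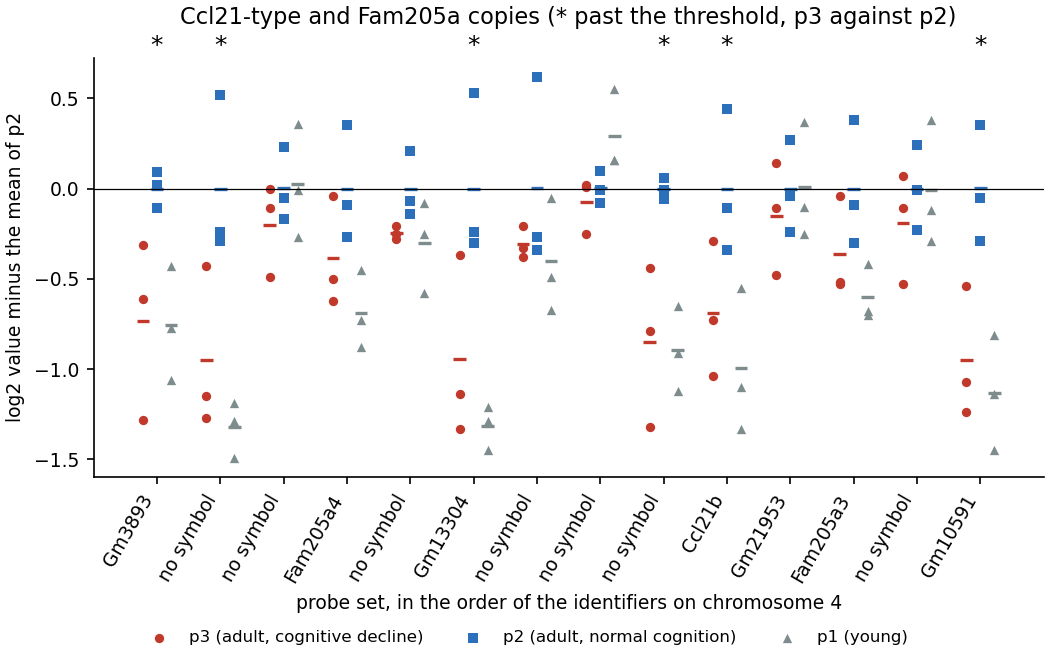
Log2 value minus the mean of p2 (vertical axis) for each mouse at the 14 probe sets from Gm3893 to Gm10591 in the order of their identifiers (horizontal axis), with p3 as red circles, p2 as blue squares, p1 as grey triangles and a bar at each group's mean. Asterisks mark the 6 probe sets past the threshold, and in these the p1 mice lie near the p3 mice.

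Among expressed genes, 10 named ones were higher in p3. Mecom, a zinc finger transcription factor of blood stem cells, was at 7.10, 7.19 and 7.53 in p3, against 6.78, 6.40 and 6.02 in p2 (difference 0.87, standard error 0.21). Mcmdc2, a protein of meiotic DNA repair, had the tightest groups, at 7.96, 7.91 and 7.99 in p3, against 7.20, 7.50 and 7.38 in p2 (0.59, standard error 0.13). Both genes had no overlap between the groups. Mrc1, the mannose receptor of macrophages at vessels and meninges, was at 7.92, 8.23 and 7.49 in p3, against 7.28, 7.36 and 6.96 in p2 (0.68, standard error 0.22). Sgpp2, a phosphatase of sphingosine 1-phosphate, differed by 0.65 with p3 mouse 11 the highest (8.96). Cth, which makes cysteine from cystathionine, differed by 0.79, with p2 mouse 8 (7.24) above p3 mouse 6 (7.05). Tifa, an adaptor of TRAF proteins in NF-kB signalling, differed by 0.72, with p2 mouse 3 (7.47) above 2 of the p3 mice.

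For 4 genes of neurons and astrocytes the size of the difference rested on particular mice. Meis2, a homeobox transcription factor, was at 13.15, 13.43 and 13.62 in p3, against 11.84, 12.85 and 13.10 in p2, with p2 mouse 3 far below the rest (difference 0.80, standard error 0.30). Etnppl, an astrocytic enzyme that breaks down phosphoethanolamine, was at 10.26, 10.40 and 10.96 in p3, against 9.43, 9.72 and 10.04 in p2 (0.81, standard error 0.35). Plch1, a phospholipase C, was at 8.96, 8.60 and 9.78 in p3, against 7.59, 7.64 and 9.05 in p2, and p2 mouse 18 was above 2 of the p3 mice (1.02, standard error 0.43). Kcnmb2, a subunit of large-conductance calcium-activated potassium channels, differed by 0.60, with p2 mouse 18 (7.17) above p3 mice 2 and 11. Besides these, a probe set of chromosome 3 with no symbol had the largest difference of the comparison (1.5, standard error 0.57), with p2 values between 4.94 and 7.45.

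Most of the genes higher in p3 were dim. Trpa1, a cation channel that senses irritants, was at 5.0, 4.38 and 4.46 in p3, against 3.96, 3.97 and 3.44 in p2 (difference 0.82, standard error 0.22). Ghrh, growth hormone-releasing hormone of the hypothalamus, was at 5.04, 4.78 and 4.81 in p3, against 4.43, 4.02 and 4.34 in p2 (0.61, standard error 0.17). Il1f8, which encodes interleukin 36 beta, was at 3.32, 3.34 and 3.75 in p3, against 2.59, 2.73 and 2.73 in p2 (0.79, standard error 0.22). In each of the 3 genes the groups did not overlap. Many of the others are best known from tissues other than brain: Cel, a lipase of the pancreas, differed by 0.72, Guca2b, a gut peptide, by 0.64, Fshb, a pituitary hormone subunit, by 0.66 and Rp1, a photoreceptor protein, by 0.79. Gimd1 (0.81), Cyb5rl (0.80), the elongation factor gene Ell3 (0.59) and the olfactory receptor pseudogene Olfr29-ps1 (0.68) complete the 10 dim genes with the smallest p, to which Rp1 was added after its values were seen. Inhibitory receptors of T cells, Pdcd1 (0.78) and Ctla4 (0.66), chosen in the same way, were also past the threshold, from mean levels of 4.26 and 3.89. They stayed past it in 2 and 3 of the 6 omissions of an adult mouse. Other T cell genes, Cd28 (0.57), Cd247 (0.20), Icos (0.07) and Zap70 (-0.17), were not past it.

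The level of these genes can be set against genes that hippocampal neurons are not known to use. The 338 measured olfactory receptor genes had a median level of 3.83, and 90% of them lay at or under 4.92. At or under that level were 1959 probe sets, of which 43 were past the threshold (2.19%), 38 higher and 5 lower in p3. Above it were 4332, of which 54 were past it (1.25%), 22 higher and 32 lower. The olfactory receptors themselves gave 9 higher and 2 lower calls (3.25%), with 189 of 338 on the higher side and a median difference of 0.03. Over 10 families of this kind (olfactory and vomeronasal receptors, major urinary proteins, type I interferons, beta-defensins and others), 15 of 488 genes were past the threshold, 12 higher and 3 lower (3.07%). The larger number of higher calls among all probe sets was not seen after quantile normalization (44 higher, 52 lower). It was seen after median centring (60 higher, 41 lower).

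Fap, Slc16a4, Mc3r and Cst13 were also dim and higher in p3. Fap, the fibroblast activation protein, was at 4.84, 5.77 and 7.35 in p3, against 4.57, 4.81 and 4.39 in p2 (difference 1.40, standard error 0.62). Its highest values were in p3 mouse 11 and, at 7.01, in p1 mouse 19, the mice in which choroid plexus markers were also highest (below). Slc16a4, a transporter of the monocarboxylate family, was at 5.78, 6.33 and 6.30 in p3, against 5.58, 4.98 and 4.85 in p2 (1.0, standard error 0.37). Mc3r, a melanocortin receptor, differed by 0.84 with p2 mouse 3 the lowest at 3.16. In Cst13, a cystatin of the male reproductive tract, p3 mouse 2 (3.41) was below p2 mouse 8 (3.55), and the difference was 0.89. Mcoln3, a lysosomal cation channel, and Mup20, a major urinary protein, differed by 0.75 and 0.69 with no overlap, and Bub1b, of the mitotic checkpoint, and Mlf1, of cilia and myeloid cells, by 0.73 and 0.63 with overlap. The interferon genes Ifna1 (0.86) and Ifna7 (-0.61) went opposite ways.

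The dim genes lower in p3 were 10. Tlr6, a receptor of bacterial lipopeptides, was at 3.76, 4.15 and 3.57 in p3, against 4.42, 4.19 and 4.74 in p2 (difference -0.62, standard error 0.26). Dsn1, of the kinetochore, and Rassf5, an adaptor of Rap1 in lymphocyte adhesion, differed by -0.60 and -0.61, each with no overlap. The olfactory receptors Olfr1283 and Olfr1085 differed by -0.73 and -0.72, and the transcripts Gm12633 and 4930572O03Rik by -0.70 and -0.68.

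Immediate early genes lay on the lower side in p3 in 11 of 13 cases, with a median difference of -0.16. Of all probe sets, 51.5% were on the higher side. Past the threshold was 1 of the 13 (7.69%, against 1.54% of all probe sets). That gene was Ptgs2, the inducible cyclooxygenase that neurons transcribe with activity, at 8.74, 9.36 and 8.20 in p3, against 9.69, 9.17 and 9.24 in p2 (difference -0.60, standard error 0.26), with p3 mouse 6 above 2 of the p2 mice. Nr4a3, an orphan nuclear receptor, was at 13.53, 13.74 and 13.13 in p3, against 14.11, 14.01 and 13.73 in p2 (-0.48, standard error 0.19). Btg2, an antiproliferative factor, was at 6.26, 6.31 and 5.91 in p3, against 6.51, 6.52 and 6.81 in p2 (-0.45, standard error 0.18) with no overlap. Nr4a3 and Btg2 had an unadjusted p under 0.05 and a fold under 1.5. Bdnf, the neurotrophin, was at -0.40 (95% interval -1.08 to 0.28), Jun and Fosl2, subunits of AP-1, at -0.24 and -0.21, and Nr4a2 and Atf3 on the other side at 0.18 and 0.12. The median stayed between -0.26 and -0.13 when each adult mouse was left out in turn. It was -0.09 without both p2 mouse 3 and p3 mouse 11, a pair chosen after seeing the data. Dentate granule cell markers, which label neurons that use many of these genes, were lower as well (below), and their part in this result was not tested.

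Many immediate early genes carry a cAMP response element, which the activity-regulated factor CREB binds. The site reads TGACGTCA, and its core reads TGACG on 1 strand, which is the same as CGTCA on the other, so both strands were searched. In the windows of 300 bases that RefSeq (GRCm38.p6) lists at gene starts, 9 of the 18 windows of 12 measured immediate early genes held TGACG or CGTCA, against 20.8% of all 32851 windows. Bdnf has 7 of the 18 windows and a match in 1 of them. The window of Btg2 held the whole TGACGTCA, as did 1.79% of all windows. For the 3 genes with the smallest p, 250 bases of the window are printed 5′ to 3′, ending at the start for Btg2 and Nr4a3 and just past it for Ptgs2, with each TGACG or CGTCA in capitals, and in Btg2 they overlap to form the whole site. A match is a description of the sequence and not evidence of binding.
Btg2 (chr1:134079156-134079405, - strand): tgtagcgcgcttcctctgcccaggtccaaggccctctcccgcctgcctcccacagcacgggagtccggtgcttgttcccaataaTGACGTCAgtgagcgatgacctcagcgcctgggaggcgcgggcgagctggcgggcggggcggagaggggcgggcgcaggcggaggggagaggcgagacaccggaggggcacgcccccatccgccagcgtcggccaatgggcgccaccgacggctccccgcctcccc
Nr4a3 (chr4:48045055-48045304, + strand): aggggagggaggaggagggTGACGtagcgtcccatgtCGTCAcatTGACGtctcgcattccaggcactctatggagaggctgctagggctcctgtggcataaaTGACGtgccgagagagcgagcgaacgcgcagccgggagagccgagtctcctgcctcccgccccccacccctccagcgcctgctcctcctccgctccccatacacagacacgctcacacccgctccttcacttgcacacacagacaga
Ptgs2 (chr1:150099811-150100060, + strand): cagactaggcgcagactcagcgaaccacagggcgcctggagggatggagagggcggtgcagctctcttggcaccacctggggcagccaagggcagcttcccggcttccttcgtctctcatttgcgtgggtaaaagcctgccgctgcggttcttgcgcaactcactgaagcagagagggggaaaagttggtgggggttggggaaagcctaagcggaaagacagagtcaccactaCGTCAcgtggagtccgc

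Cholinergic and other transmitter genes were mostly near 0. Of 11 measured genes of acetylcholine receptors and handling, 6 had a positive and 5 a negative difference, and 0 were past the threshold. Ache, the acetylcholinesterase that clears the transmitter from the synapse, came closest, at 6.29, 7.0 and 6.64 in p3, against 7.28, 6.98 and 7.37 in p2 (difference -0.57, standard error 0.20), with p3 mouse 6 just above p2 mouse 8. Chrna4, the subunit that pairs with beta2 in the main nicotinic receptor of the brain, was at 11.10, 11.06 and 12.40 in p3, against 10.20, 10.82 and 11.34 in p2 (0.73, 95% interval -0.10 to 1.57). Its highest value was in p3 mouse 11, which also had the highest thalamus markers. The partner subunit Chrnb2 was at -0.27, and Lypd1, a membrane protein that damps nicotinic receptors, at -0.32 with no overlap. Chrna9, a dim subunit known from hair cells, was at 0.32 with an unadjusted p under 0.05.

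None of 5 glutamate receptor genes, 9 GABA receptor genes or 17 genes of the synaptic vesicle and active zone was past the threshold, and their medians lay at 0.07, 0.04 and 0.02. Gabrg1, a subunit of the GABA-A receptor, was at 0.56 (95% interval -0.13 to 1.25) and Grm3, a metabotropic glutamate receptor, at 0.29. Of 31 potassium channel genes, Kcnmb2 was past the threshold (3.23%, against 1.54% of all probe sets). Kcnip3, the calcium sensor known as calsenilin or DREAM, was at a high signal, 15.57, 15.95 and 15.57 in p3, against 15.04, 15.37 and 15.46 in p2 (0.41, standard error 0.16), with no overlap and a fold short of 1.5. Of 19 genes of calcium and cAMP signalling, Plch1 was the 1 past the threshold (5.26%, against 1.54% of all probe sets).

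Immune genes moved in both directions. Of 25 interferon-induced genes Mndal was past the threshold (4%, against 1.54% of all probe sets), and the median of the list was 0.11. Gbp2, a guanylate-binding GTPase, was at 5.82, 5.65 and 5.83 in p3, against 6.43, 6.49 and 5.95 in p2 (-0.52, standard error 0.19), and Ifi211, of the same family as Mndal, at -0.66 just short of an unadjusted p of 0.05. On the other side, Zbp1, a sensor of Z-form nucleic acids, was at 0.33. Of 13 genes of the interleukin 1 family Il1f8 and Il1r2 were past the threshold, both higher (15.4%, against 1.54% of all probe sets). Il1f8 lay at a mean level of 3.08, among the dim probe sets in which most calls were higher. Il1r2, the decoy receptor that takes up interleukin 1, was at 5.62, 5.36 and 5.05 in p3, against 4.94, 4.72 and 4.46 in p2 (0.64, standard error 0.19).

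Of 38 cytokine, chemokine and receptor genes, 3 were past the threshold (7.89%, against 1.54% of all probe sets). Gpr35 (0.74, mean level 2.92), an orphan receptor of immune cells, was higher in p3, and Ccl21b and Ackr3 were lower in p3. Ackr3, which scavenges the chemokine Cxcl12, was at 5.35, 5.66 and 5.24 in p3, against 6.32, 5.78 and 6.0 in p2 (-0.62, standard error 0.24). Ccl19, the other ligand of Ccr7, was at -0.44 with no overlap and a fold short of 1.5. Microglial markers as a list were level, with 0 of 16 past the threshold and a median of -0.01, and C1qc, a chain of complement C1q, was at 7.29, 7.36 and 7.45 in p3, against 7.72, 7.67 and 7.84 in p2 (-0.38).

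Cytosolic ribosomal and proteasome genes were on the lower side in p3 by small steps, while aminoacyl-tRNA synthetases, which charge tRNAs for translation, were 4 higher and 5 lower (median -0.02). Of 17 cytosolic ribosomal proteins 16 were lower, with a median of -0.12, none past the threshold and none with an unadjusted p under 0.05. Rpl5, of the large subunit, was at 13.64, 13.59 and 13.61 in p3, against 13.88, 13.83 and 13.77 in p2 (-0.21, standard error 0.13), and Rpl11, its partner, at -0.26. Of 12 proteasome subunits 11 were lower, with a median of -0.14. Psma7, of the core particle, was at 10.11, 10.14 and 9.92 in p3, against 10.42, 10.27 and 10.70 in p2 (-0.41, standard error 0.16), and Psmc2, an ATPase of the cap, at -0.31, both with an unadjusted p under 0.05. The medians of both lists stayed between -0.21 and -0.11 when each adult mouse was left out, and between -0.16 and -0.12 after quantile normalization or median centring, while the median of all probe sets was 0.01.

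In mitochondria the steps were of like size. Of 21 mitochondrial ribosomal proteins 15 were lower (median -0.08). Mrps26 was past the threshold (4.76%, against 1.54% of all probe sets). Mrpl15 was at -0.41 (8.14, 7.81 and 8.01 in p3, against 8.33, 8.41 and 8.44 in p2) and Mrpl9 at -0.48. Of 17 subunits of oxidative phosphorylation 11 were lower, with a median of -0.05 that was 0.02 without p3 mouse 6. Of 20 glutathione and redox genes 14 were lower (median -0.10), among them the mu-class transferases Gstm6 (-0.40) and Gstm4 (-0.35), neighbours of Gstm3 whose sequences are alike, so their probe sets can share signal. Genes of a list share the array and its scale, and these counts carry no test.

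**Figure D4:**
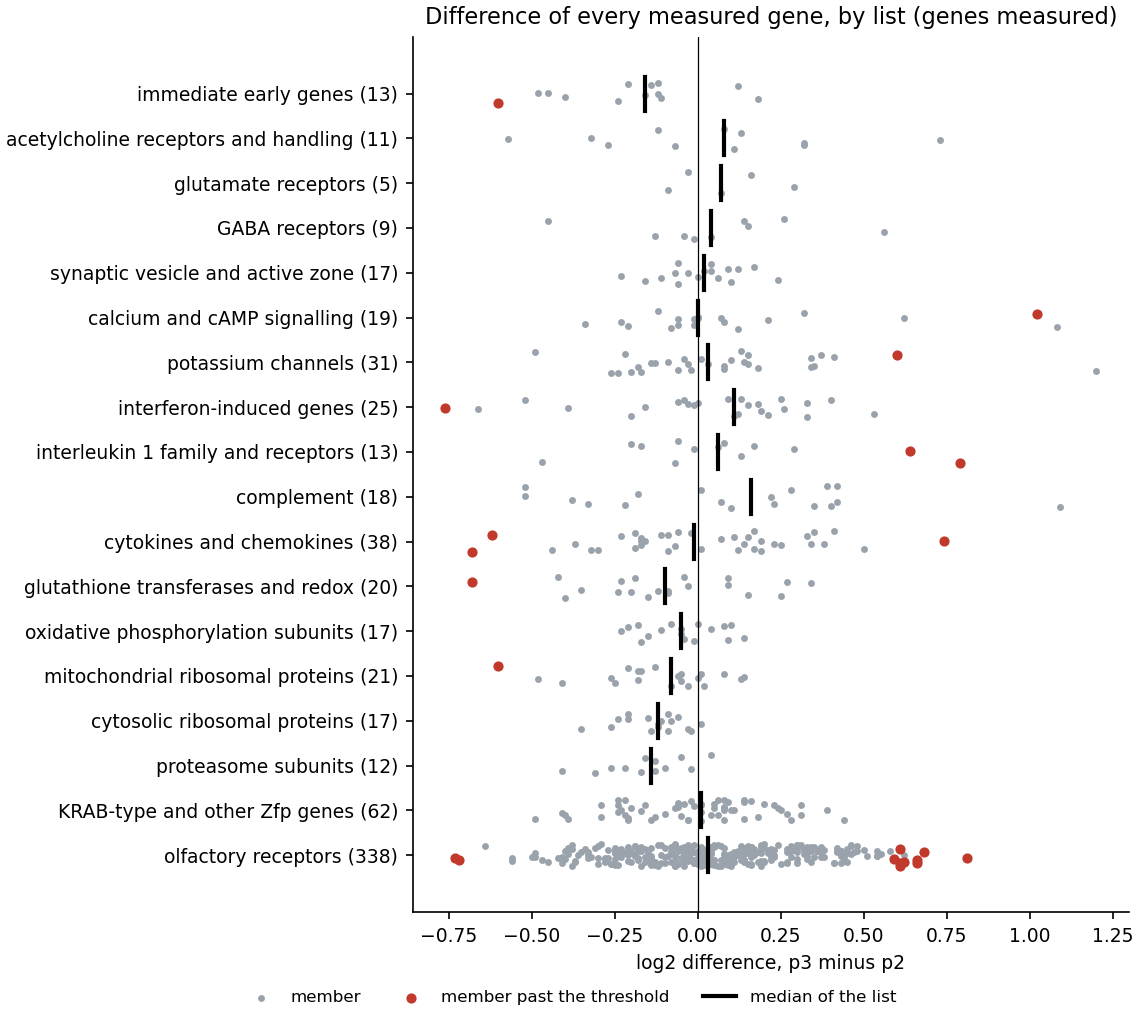
Log2 difference of p3 minus p2 (horizontal axis) for every measured gene of 18 lists, with genes past the threshold in red and the median of each list as a black bar. The medians of the proteasome (-0.14) and cytosolic ribosomal (-0.12) lists lie left of 0 with most members close to them, and the olfactory receptors at the bottom show the spread of 338 dim genes around a median of 0.03.

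For dentate, choroid plexus and thalamus markers, the difference between p3 and p2 rested on single mice. Dentate granule cell markers were lower in p3 in 10 of 10 cases (median -0.30, none past the threshold). C1ql2, a synaptic organiser of mossy fibres, was at 10.10, 10.24 and 9.53 in p3, against 11.37, 10.64 and 10.28 in p2 (-0.81, 95% interval -1.67 to 0.06), and Prox1, the transcription factor that defines these cells, at -0.46. The markers of p2 mouse 3 stood 0.77 above the mean of the adult mice, and the median difference was -0.06 without that mouse. The same mouse was the lowest for Meis2 and the highest for Plekhg5 and Elmo2, and the part of the dentate markers in those values was not tested.

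Choroid plexus markers had a median difference of 0.56, with 12 of 14 on the higher side and none past the threshold, and thalamus markers of 0.44, with 11 of 14. In p3 mouse 11 they stood 1.72 and 0.88 above the mean of the adult mice, and no other adult mouse was above it in either list. Without that mouse the medians were -0.25 and 0.00. The mean level of the choroid plexus list was 6.65, 6.89 and 9.60 in p3, against 7.53, 6.82 and 7.26 in p2, and p1 mouse 19 was as high as p3 mouse 11. Fap, Plch1 and Sgpp2 had their highest adult value in p3 mouse 11. Without it they differed by 0.71, 0.69 and 0.42, and none was past the threshold. They were not the only such genes. Mecom, Meis2, Etnppl, Cth and Tifa also had their highest adult value in that mouse, and of these Mecom alone stayed past the threshold without it. All 9 oligodendrocyte genes were on the higher side (median 0.19, 0.08 without p3 mouse 11), with Ermn, a cytoskeletal protein of myelin sheaths, at 0.41.

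Markers of immature neurons, a list that includes genes of cell division, had mean levels of 6.31, 6.36 and 6.37 in p3, against 6.16, 6.13 and 6.24 in p2. The step was small and the groups did not overlap. Other lists had no overlap of their mean levels either, so this is not particular to the immature neuron list. Among them were oligodendrocyte, astrocyte, immediate early, collagen, cytosolic ribosomal and proteasome genes. The cystatins of the testis cluster were at 3.48, 3.56 and 3.58 in p3, against 3.30, 3.41 and 3.24 in p2. Of the 17 genes of the immature neuron list, 12 were on the higher side (median 0.14, and 0.09 to 0.20 when each adult mouse was left out). The 1 gene past the threshold (5.88%, against 1.54% of all probe sets) was Bub1b (0.73, with overlap). Cenpf, a kinetochore protein, was at 0.32 with no overlap. The median level of the list was 4.80, so most of these genes were dim. In the bin of probe sets that holds this level, 56.5% were on the higher side.

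**Figure D5:**
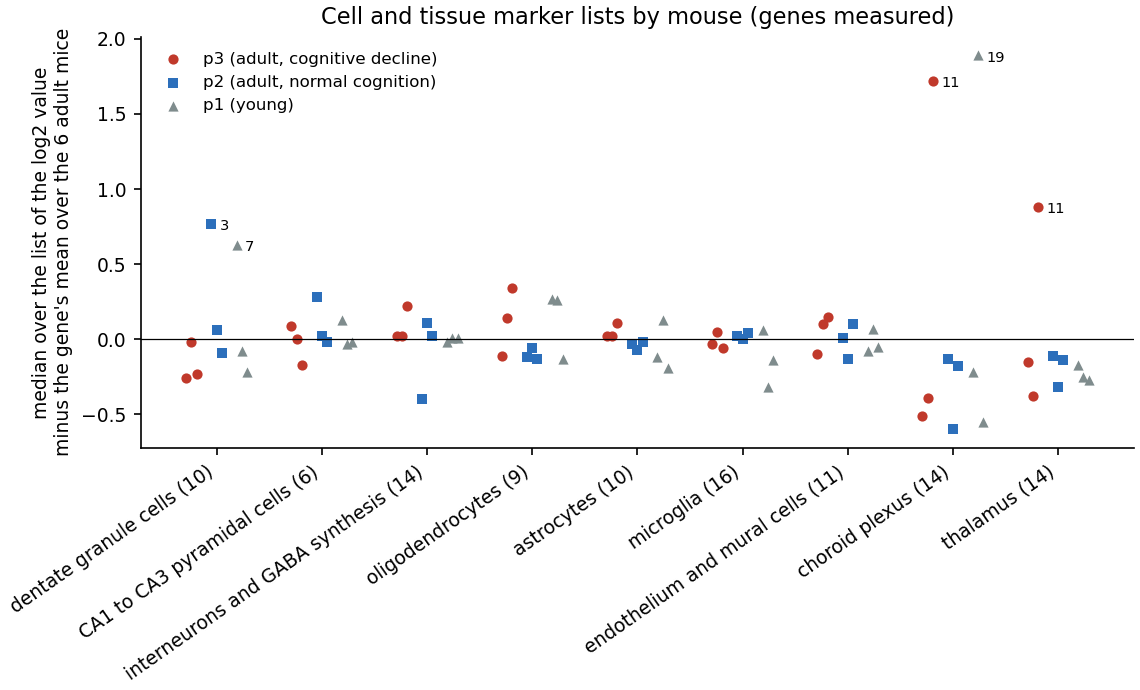
Median over the genes of a marker list of the log2 value minus the gene's mean over the 6 adult mice (vertical axis) for each of 9 mice, by list (horizontal axis, with the genes measured), with p3 as red circles, p2 as blue squares and p1 as grey triangles, and the numbers of mice more than 0.6 from 0. P3 mouse 11 stands at 1.72 for choroid plexus and 0.88 for thalamus, and p2 mouse 3 at 0.77 for dentate granule cells.

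Each of the 6 adult mice was left out in turn to see which calls stayed past the threshold. A call near the threshold is easily lost, and the calls were chosen from the same values. Staying past it is therefore no separate support. Of the 97 probe sets, 13 stayed past the threshold in all 6 omissions, 5 higher and 8 lower in p3. The lower ones were Mmp17, Mndal, Gm10591, Gm13304, Gm15455, 2510039O18Rik and 2 probe sets of the Ccl21 region with no symbol, so 4 of the 8 came from that region. Copies in that region are alike, and whether these 4 probe sets share signal was not tested. The higher ones were Mecom, the only expressed gene among them, and the dim Trpa1, Il1f8, Gimd1 and Rp1. Between 27 (without p2 mouse 8) and 47 (without p3 mouse 11) of the 97 were lost in an omission, and 44 were lost without p2 mouse 3.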

How the data were processed

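RNA of 9 hippocampi was hybridised to Clariom S arrays, 1 for each mouse. The deposited table holds log2 values that the authors made in Transcriptome Analysis Console. Its version and the genome build were not given in the sources used here. The labels and the methods name different RNeasy kits. Rows in which p2 follows a straight line were left out of p2, and 0 columns of per-sample values were left unused. One limma model (version 3.58.1, R 4.3.3) was fitted to all 9 mice, with p1 for the spread and p3 minus p2 as the contrast, with Benjamini-Hochberg adjustment over 6291 probe sets. In list counts, the brightest probe set stood for its gene. Nothing states that mice came from separate litters, so p-values measure the spread between these mice. Named genes are those past the threshold at a level of 6 or more, the 10 dim ones in each direction with the smallest p, for each gene list those past the threshold and the 4 with the smallest p, and Chrna3. Bdnf, Fosl2, Nr4a2, Atf3, Chrnb2, Fam205a3, Fam205a4, Rp1, Pdcd1, Ctla4, Cd28, Cd247, Icos and Zap70 were chosen after their values were seen. Members and lists were chosen with earlier results of these data known. The fit was tested on simulated data. Alternatives were the model, scaling, filter, threshold and leaving out each mouse.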

Additional observations from a re-analysis of the deposited data

How the results depend on the processing

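The count of 97 probe sets past the threshold was 48 in a one-way model without moderated variances. By the t-test of the methods' general statistics it was 41, and that test also called 1 probe set after adjustment. The count was 38 at a level of at least 6 and 33 above the median level, where 28.9% and 30.3% of calls were higher in p3. A fold over 1.3 gave 290, no fold threshold 335 and a fold over 2 gave 3, all higher in p3 (100%). The share of calls higher in p3, 61.9% in the fit on all 9 mice, was 45.8% after quantile normalization. Leaving out 1 mouse at a time gave 94 to 177 calls, 52.9% to 62.9% of them higher in p3, and 0 after adjustment in each case. The fits on adult mice only (99), with trended and robust variances (103), with median centring (101) and on probe sets averaged by gene (90) lay within 1.5 times of 97. Leaving out p2 mouse 3 and p3 mouse 11 together, chosen after seeing the data, gave 129. Some genes short of the threshold changed side: Bdnf was at 0.05 without both of those mice. With single mice left out, Nr4a2 ranged from -0.08 (without p2 mouse 3) to 0.34, and Atf3 from -0.09 (without p3 mouse 2) to 0.26, with -0.03 without p2 mouse 8. The cause was not tested. No paired analysis was possible because the groups share no replicate numbers.

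With 3 arrays in each group, their number limits the precision, and dim probe sets gave more calls than bright ones. The groups are ends of a ranking of behaviour, no slide or scan batch is given, and markers of choroid plexus, thalamus and dentate gyrus differed between single mice.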

Other observations

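The lists described next held no gene past the threshold. Of 18 measured complement genes, 12 were on the higher side, with a median difference of 0.16 (0.05 to 0.17 when each adult mouse was left out). Serping1, the inhibitor of complement C1, was at 6.74, 6.77 and 6.6 in p3 mice, against 7.49, 6.95 and 7.22 in p2 mice. Its difference was -0.52 (standard error 0.19), with no overlap and a fold short of 1.5. Of 18 collagen genes, 14 were on the higher side and none was past the threshold; Col19a1 was at -0.57 and Col9a1 at 0.57. Of 15 heat shock chaperone genes none was past the threshold, with Hspb7, a small chaperone of muscle, at 0.58. Of 15 genes of Alzheimer disease risk and amyloid processing none was past it, with Itm2c, a membrane protein that binds the amyloid precursor, at -0.30 and Mme, the amyloid-degrading neprilysin, at 0.52. The 6 measured clock genes ranged from -0.19 (Cry2) to 0.35 (Npas2). Of 62 genes of the Zfp zinc finger family, 32 had a positive and 30 a negative difference, with a median of 0.01 and 0 past the threshold.

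Wnt10a, a secreted Wnt ligand, was at 0.47, and Cpt2, which imports fatty acids into mitochondria for oxidation, at 0.53, both with no overlap and a fold short of 1.5. Lrrc55, an auxiliary subunit of large-conductance potassium channels like Kcnmb2, was at -0.58 with no overlap, just short of the fold, and was the 1 of 3 measured genes of the medial habenula list with an unadjusted p under 0.05.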
